A study of Mus musculus with 9 samples.

Results

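The comparison described here sets the olfactory bulb of mice that inhaled 10% linalyl acetate (LA) against that of mice that inhaled 1% LA, gene by gene. It covered the 21367 probe sets that carry a single gene symbol and the 4 haemoglobin probe sets that carry several, 21371 of the 22206 probe sets in the deposited table. Linalyl acetate is a monoterpene ester found in lavender and bergamot oils. The labels give 9 samples of total RNA on Clariom S arrays, 3 per group, from 8-week-old male ICR mice, an outbred stock. After 7 days of acclimation in single housing, mice inhaled vehicle (1% Tween 80), 1% LA or 10% LA with the whole body for 7 days, and a tail suspension test followed 30 min of inhalation. The labels do not say whether the LA aerosols held Tween 80, or whether each sample came from 1 animal, so the p-values measure the spread between these samples.

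Sample titles, which the source names repeat, set the groups. Free-text descriptions of 1% replicates 1 and 2 name another treatment, oral oleacein with an injection of lipopolysaccharide (LPS), and those of the vehicle samples name saline or LPS. 1% replicate 3 and all the 10% samples carry no description. The series' design text describes a human cell line given oleacein and LPS, so whether its methods apply to these mice is not known. The main genes and lists were therefore also read with 1% replicates 1 and 2 left out. This choice was made after seeing the data and leaves a lone 1% array. Calls that it ended are named beside many of the genes but not all, so a gene without such a remark may have lost its call. A second set of arrays stood apart: the cortical projection neuron list (22 genes measured) had a mean log2 signal of 10.76 in 1% replicate 2, 10.82 in 10% replicate 2 and 10.78 in vehicle replicate 3, against 9.68 to 10.19 in the other arrays. Markers of the labelled tissue were well above the median signal of 6.94, for example the granule cell genes Meis2 (16.79 to 17.70 over the 6 dose arrays) and Synpr (16.06 to 16.73).

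The olfactory bulb receives the axons of sensory neurons in the nose and relays their input through mitral and tufted cells, under inhibition by granule and periglomerular cells. Ensheathing glia wrap the incoming axons, and a dense capillary bed supplies the tissue. Adult haemoglobin is a tetramer of alpha and beta globin chains made in red cell precursors. Its mRNA remains in reticulocytes, so RNA of whole tissue holds globin transcripts from blood in its vessels, and some neurons and glia express globins too. In bulk tissue, fewer cells of a type and less RNA per cell cannot be told apart.

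The adult haemoglobin probe sets had lower signal at 10% than at 1%. Their 4 differences ran from -1.30 to -1.06 on the log2 scale, about 2-fold. Neither this nor any other difference passed adjustment over the whole table: limma gave 0 of 22206 probe sets an adjusted p under 0.05, and the lowest adjusted p was 0.999. The share called was thus 0%. Without adjustment, 676 probe sets (3.04%) had a limma p under 0.05. Of the whole table, 1.69% were so called higher and 1.35% lower at 10%. These shares are the background for the counts of list members below. Among the 21371 members the count was 647, with 364 higher and 283 lower, while 1069 would pass that threshold if no gene differed. An unadjusted p under 0.05 with more than 2-fold change, the criterion in that design text, was met by 27 members, 12 higher and 15 lower. Over the whole table that share was 0.153%, made up of 0.0675% higher and 0.0856% lower.

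Most of the transcriptome lay close to 0. Over single-symbol probe sets the quartiles of the difference were -0.13 and 0.14 on the log2 scale, and the median was 0.0033. Of these probe sets 50.5% differed upward, the background for the counts by direction given below. The median 95% confidence interval of a probe set reached 0.46 to either side of its estimate, so for a probe set of median precision a difference under that size could not be told from 0 at 3 arrays per group. Groups did not overlap for 1520 members (7.11%), against 7.08% of the whole table (4% higher and 3.08% lower). Of the 23 single-symbol probe sets that met the criterion, the vehicle mean lay between the means of the LA groups in 20. These were chosen for LA means over 2-fold apart, which by itself favours a vehicle mean between them. The share over all probe sets was not counted, and nothing is concluded from it. With 3 arrays against 3, an exact two-sided permutation test of a single gene cannot go below p = 0.1. Groups that do not overlap have just that p, so a share of 0.1 would arise if no gene differed, above the share seen. Lack of overlap is therefore given below as a description only.

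**Figure D1:**
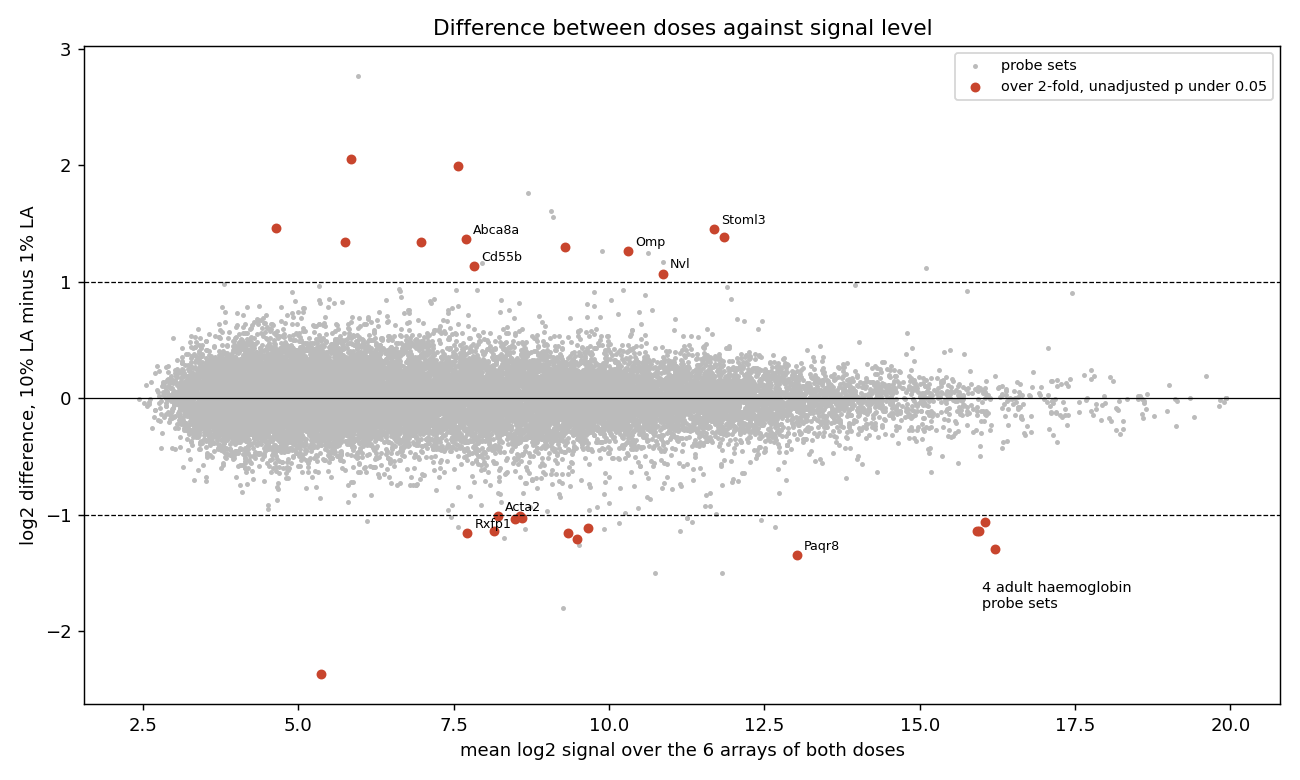
Each point is a probe set, with its mean log2 signal over the 6 arrays of both doses on the x axis and its log2 difference, 10% LA minus 1% LA, on the y axis; red points are over 2-fold (dashed lines) with an unadjusted limma p under 0.05. The 27 red points run from low to high signal, and the 4 adult haemoglobin probe sets form a group at the lower right.

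The alpha globin genes Hba-a1 and Hba-a2 and the beta globin genes Hbb-bs and Hbb-bt encode the chains of adult haemoglobin in the mouse. Their promoters are shown because their probe sets differed together between doses, as did those of the predicted chromosome 14 genes described below. RefSeq (GRCm38.p6) held a promoter for these 4 genes and for Alas2, the first enzyme of haem synthesis in red cell precursors, which is set beside them. Each sequence is the 200 bases before the gene's start, 5′ to 3′ on the gene's strand. Capitals mark the CCAAT motif and the CACCC motif on either strand, which on the other strand read ATTGG and GGGTG.
Hba-a1 promoter, GRCm38.p6 chr11:32283472-32283671, plus strand: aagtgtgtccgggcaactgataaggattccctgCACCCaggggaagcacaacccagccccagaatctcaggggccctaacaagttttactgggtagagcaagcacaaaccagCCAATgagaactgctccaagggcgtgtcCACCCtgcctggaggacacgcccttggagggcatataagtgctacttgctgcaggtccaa
Hba-a2 promoter, GRCm38.p6 chr11:32296292-32296491, plus strand: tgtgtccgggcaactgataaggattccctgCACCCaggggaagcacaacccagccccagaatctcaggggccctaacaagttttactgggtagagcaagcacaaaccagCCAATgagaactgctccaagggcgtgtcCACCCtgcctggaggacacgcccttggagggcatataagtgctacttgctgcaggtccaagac
Hbb-bs promoter, GRCm38.p6 chr7:103827929-103828128, minus strand: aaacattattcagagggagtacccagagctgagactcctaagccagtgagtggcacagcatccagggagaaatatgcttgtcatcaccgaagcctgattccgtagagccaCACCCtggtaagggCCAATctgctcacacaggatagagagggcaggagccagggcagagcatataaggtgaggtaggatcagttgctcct
Hbb-bt promoter, GRCm38.p6 chr7:103813924-103814123, minus strand: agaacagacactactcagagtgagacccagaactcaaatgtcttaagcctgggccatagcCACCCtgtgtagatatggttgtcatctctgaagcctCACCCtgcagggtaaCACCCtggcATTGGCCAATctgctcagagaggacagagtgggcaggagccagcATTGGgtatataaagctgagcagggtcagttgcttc
Alas2 promoter, GRCm38.p6 chrX:150547217-150547416, plus strand: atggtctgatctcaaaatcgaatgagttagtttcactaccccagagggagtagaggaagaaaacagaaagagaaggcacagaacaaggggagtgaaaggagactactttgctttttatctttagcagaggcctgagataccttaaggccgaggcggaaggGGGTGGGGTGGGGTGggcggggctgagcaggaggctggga
The alpha globin promoters were 97% identical over 203 aligned positions, of which 197 matched. The unmatched positions were at the ends, where each sequence extends past the other, and the shared stretch was identical. Their motif positions below differ by the same offset of the gene start. The beta globin promoters shared 69.6% of 207 positions, and Hba-a1 with Hbb-bs 49.8% of 215. CCAAT was found once on the gene's strand in each of the 4 globin promoters, at -88 in Hba-a1, -91 in Hba-a2, -76 in Hbb-bs and -75 in Hbb-bt, counted from the gene's start. Hbb-bt held it on the other strand as well, at -80 and -36, and the first of these matches abuts the one at -75. CACCC was found at -167 and -60 in Hba-a1, at -170 and -63 in Hba-a2, at -90 in Hbb-bs, and at -140, -104 and -89 in Hbb-bt. Alas2 held no CCAAT, and held CACCC on the other strand at -40, -35 and -30. On either strand, CCAAT occurred in 29.3% and CACCC in 45.5% of 32851 RefSeq promoters cut to the same length, and 4.11% held both on the gene's strand.

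Signal of the probe set for Hba-a1 (listed as Hba-a1; Hba-a2) was 16.66, 16.70 and 16.12 in 1% replicates 1 to 3 and 15.12, 15.39 and 15.55 in 10% replicates 1 to 3, on the log2 scale. Every 1% array was above every 10% array. The difference was -1.14 ± 0.23 (SE, n = 3 per group), with an unadjusted limma p of 0.000371 and an adjusted p of 0.999. Vehicle arrays read 16.15, 15.76 and 15.49, so vehicle replicate 1 lay among the 1% arrays and vehicle replicate 3 among the 10% arrays. The second alpha globin probe set (Hba-a2; Hba-a1) gave nearly the same values, 16.66, 16.78 and 16.13 at 1% against 15.09, 15.44 and 15.61 at 10%. It differed by -1.14 ± 0.24 (limma, unadjusted p = 0.000679, adjusted p = 0.999). Both alpha globin probe sets carry the same pair of near-identical genes and are not independent measurements.

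The probe set of Hbb-bs (listed as Hbb-bs; Hbb-b1) read 17.17, 16.98 and 16.41 at 1% and 15.21, 16.38 and 15.08 at 10%. The groups did not overlap, but 10% replicate 2 came within 0.03 of 1% replicate 3. The difference was -1.30 ± 0.47 (limma, unadjusted p = 0.019, adjusted p = 0.999). The probe set of Hbb-bt (Hbb-bt; Hbb-b2) read 16.83, 16.68 and 16.26 at 1% and 15.42, 16.04 and 15.12 at 10%, a difference of -1.06 ± 0.40 (limma, unadjusted p = 0.023, adjusted p = 0.999). In the vehicle group the beta globins spanned the values of both doses, with 17.20, 15.20 and 16.39 for Hbb-bs. The 10% arrays also ranked differently for the globin types: replicate 2 was highest for the beta globins and replicate 3 for the alpha globins.

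All 4 adult probe sets were lower at 10% in every alternative that was run. Since their doses did not overlap, leaving out arrays could not have changed that direction. How many kept an unadjusted p under 0.05 depended on the arrays. Hbb-bt lost it without 1% replicate 1, 1% replicate 2, 10% replicate 1 or 10% replicate 3, and Hbb-bs without the same arrays except 1% replicate 2. Without 1% replicates 1 and 2 the differences were -0.73 for Hbb-bt, -0.85 for Hbb-bs and -0.75 and -0.77 for the alpha globin probe sets, with unadjusted limma p-values of 0.266, 0.265, 0.0541 and 0.0359 and adjusted p-values of 1. All 4 kept an unadjusted limma p under 0.05 without the 3 arrays of higher cortex signal.

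**Figure D2:**
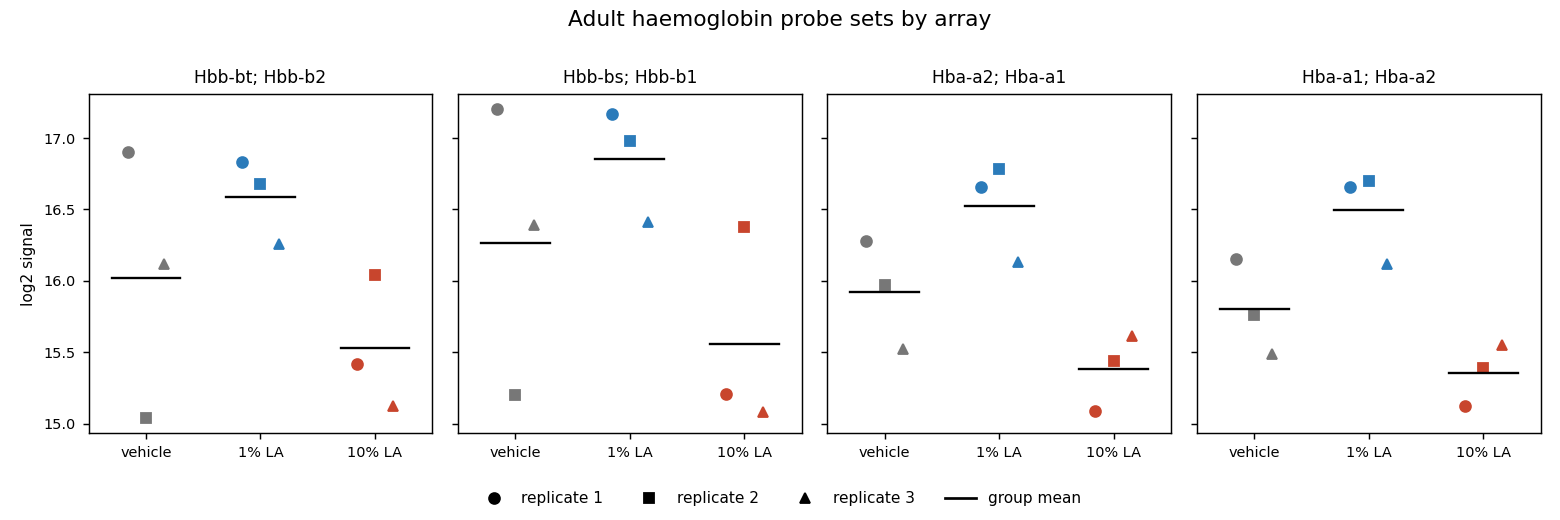
Log2 signal (y axis) of the 4 adult haemoglobin probe sets in each array, by group (x axis), with a marker shape for each replicate and a bar at the group mean. All 1% LA arrays lie above all 10% LA arrays in each panel, and the vehicle arrays span most of that range.

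Other genes of the red cell differed by less, and in both directions. The embryonic beta-like globins Hbb-bh1 and Hbb-y, the beta-like Hbb-bh2, the embryonic zeta globin Hba-x and the theta globins Hbq1a and Hbq1b had log2 signals of 3.14 to 5.44 over the 9 arrays, below the median of all genes. Their differences ran from -0.14 (Hbq1a) to 0.33 (Hba-x), and 0 of these 6 had an unadjusted limma p under 0.05. Of 32 other erythroid genes, 0 had an unadjusted limma p under 0.05, 19 differed upward and 13 downward, and the median difference was 0.03. Only 10 of the 32 reached the median signal of all genes, and Alas2, Ahsp, Klf1 and Gata1 were below it. Alas2 read 6.55, 6.65 and 6.69 at 1% and 6.51, 6.38 and 6.31 at 10%. Its groups did not overlap, and its difference was -0.23 ± 0.17 (limma, unadjusted p = 0.212). Slc4a1, the band 3 anion exchanger of the red cell membrane, differed by -0.02 ± 0.27. Ahsp, the chaperone of free alpha globin, differed by -0.29 ± 0.24. Fech, which inserts iron into haem, differed by 0.0033 ± 0.20, and Klf1 and Gata1, transcription factors of erythroid genes, by 0.08 and 0.04.

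Genes of other blood and vessel cells were read beside them. Only 2 of 26 leukocyte genes and 2 of 12 platelet genes reached the median signal of all genes. Of 26 leukocyte genes measured, 13 differed upward and 13 downward, and 1 had an unadjusted limma p under 0.05, the neutrophil gene Retnlg (4.20, 4.26 and 4.33 at 1% against 3.48, 3.91 and 4.05 at 10%). Retnlg no longer had it without 1% replicates 1 and 2 (limma, unadjusted p = 0.0934) or without the 3 arrays of higher cortex signal (limma, unadjusted p = 0.066). S100a9, a neutrophil calcium-binding protein, differed by -0.05 ± 0.34. Of 12 platelet genes, 1 had an unadjusted limma p under 0.05, Gp9, part of the von Willebrand factor receptor (-0.55 ± 0.20), whose p was 0.128 (limma, unadjusted) without 1% replicates 1 and 2. Among 22 genes that make, break down or store haem and iron, 0 had an unadjusted limma p under 0.05. Hmox1, the inducible haem oxygenase, differed by 0.28 ± 0.19.

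Of 23 endothelial and mural genes, 9 differed upward and 14 downward with a median of -0.10, and 2 had an unadjusted limma p under 0.05, Acta2 and Myh11, both lower at 10%. Acta2, smooth muscle actin, read 9.16, 8.93 and 8.07 at 1% and 7.45, 7.96 and 7.71 at 10%. The groups did not overlap, and 1% replicates 1 and 2 stood well above the rest, while vehicle arrays (7.68, 8.24 and 7.65) sat with the 10% arrays except that vehicle replicate 2 exceeded 1% replicate 3. The difference was -1.01 ± 0.28 (limma, unadjusted p = 0.00437), and without 1% replicates 1 and 2 it was -0.36 (limma, unadjusted p = 0.284). Myh11, smooth muscle myosin, read 6.63, 6.47 and 6.23 at 1% and 6.12, 5.84 and 6.03 at 10%, a difference of -0.45 ± 0.17 (limma, unadjusted p = 0.0234). It was -0.23 without 1% replicates 1 and 2 (limma, unadjusted p = 0.366). Leaving out the 3 arrays of higher cortex signal gave -0.36 (limma, unadjusted p = 0.139), and its p was also over 0.05 without 1% replicate 1, 1% replicate 2 or 10% replicate 2 alone. Des, the muscle intermediate filament protein desmin, differed the other way without overlap, 4.50, 4.22 and 4.23 at 1% against 4.63, 4.56 and 4.90 at 10% (0.38 ± 0.19, limma, unadjusted p = 0.0657), at a signal below the median of all genes. The glucose transporter of the endothelium, Slc2a1, differed by -0.13 ± 0.43. The part of vessel cells or blood content in the globin difference was not tested.

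Of 24 olfactory sensory neuron genes measured, 18 differed upward at 10% and 6 downward, with a median difference of 0.19 against 0.0033 over all single-symbol probe sets, and 4 had an unadjusted limma p under 0.05, all of them higher. Omp, the olfactory marker protein of mature sensory neurons, read 9.99, 8.58 and 10.47 at 1% and 10.62, 10.58 and 11.62 at 10%. The highest 1% array came within 0.11 of the lowest 10% array, and 1% replicate 2 lay far below the others. Its difference was 1.26 ± 0.54 (limma, unadjusted p = 0.0386). Stoml3, a stomatin-like membrane protein of the sensory cilia, read 11.48, 9.80 and 11.63 at 1% and 12.01, 12.08 and 13.17 at 10%, a difference of 1.45 ± 0.51 (limma, unadjusted p = 0.0159). Here too 1% replicate 2 was the lowest array and 10% replicate 3 the highest.

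Components of odour transduction differed by less. Gng13, the gamma subunit of a G protein of these cells, was 8.23, 8.72 and 8.75 at 1% and 8.87, 8.98 and 9.38 at 10% (0.51 ± 0.20, limma, unadjusted p = 0.0295). Cnga4, a subunit of their cyclic nucleotide-gated channel, was 4.30, 4.10 and 4.18 against 4.51, 5.18 and 4.71 (0.61 ± 0.24, limma, unadjusted p = 0.0266), at a signal below the median of all genes. The groups did not overlap for either gene. Cnga4 differed by 0.37 without the 3 arrays of higher cortex signal (limma, unadjusted p = 0.228), and its p was also over 0.05 without 1% replicate 2, 1% replicate 3 or 10% replicate 2. Gng13 differed by 0.34 without 1% replicate 1 (limma, unadjusted p = 0.133) and by 0.36 without 10% replicate 3 (limma, unadjusted p = 0.121). With 1% replicates 1 and 2 left out, the unadjusted limma p was 0.131 for Cnga4 and 0.274 for Gng13. S100a5, a calcium-binding protein of sensory neurons, was 13.40, 12.91 and 14.11 at 1% and 14.46, 13.44 and 15.44 at 10% (0.97 ± 0.52, limma, unadjusted p = 0.0892), with overlap. Vehicle means of Omp (10.88) and Stoml3 (12.02) lay between those of both doses.

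The sensory neuron list's mean signal was 8.40, 8.13 and 8.58 at 1% and 8.46, 8.72 and 8.73 at 10%, with overlap. The lowest array, 1% replicate 2, was 1 of the 3 arrays of higher cortex signal, but 10% replicate 2 and vehicle replicate 3 (8.60) were not low. Without the 3 arrays of higher cortex signal the median difference was 0.08, with 13 genes upward and 11 downward, and Omp (0.89, limma, unadjusted p = 0.054) and Stoml3 (1.03, limma, unadjusted p = 0.0579) no longer had a p under 0.05. They also lost it without 1% replicate 2 alone or 10% replicate 3 alone, and Omp lost it with all arrays under a trend and robust variance prior (limma, unadjusted p = 0.078). Without 1% replicates 1 and 2 they differed by 0.47 (limma, unadjusted p = 0.492) and 0.79 (limma, unadjusted p = 0.208), and 12 of the 24 genes differed upward and 12 downward. What these arrays contribute to the difference was not tested further.

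**Figure D3:**
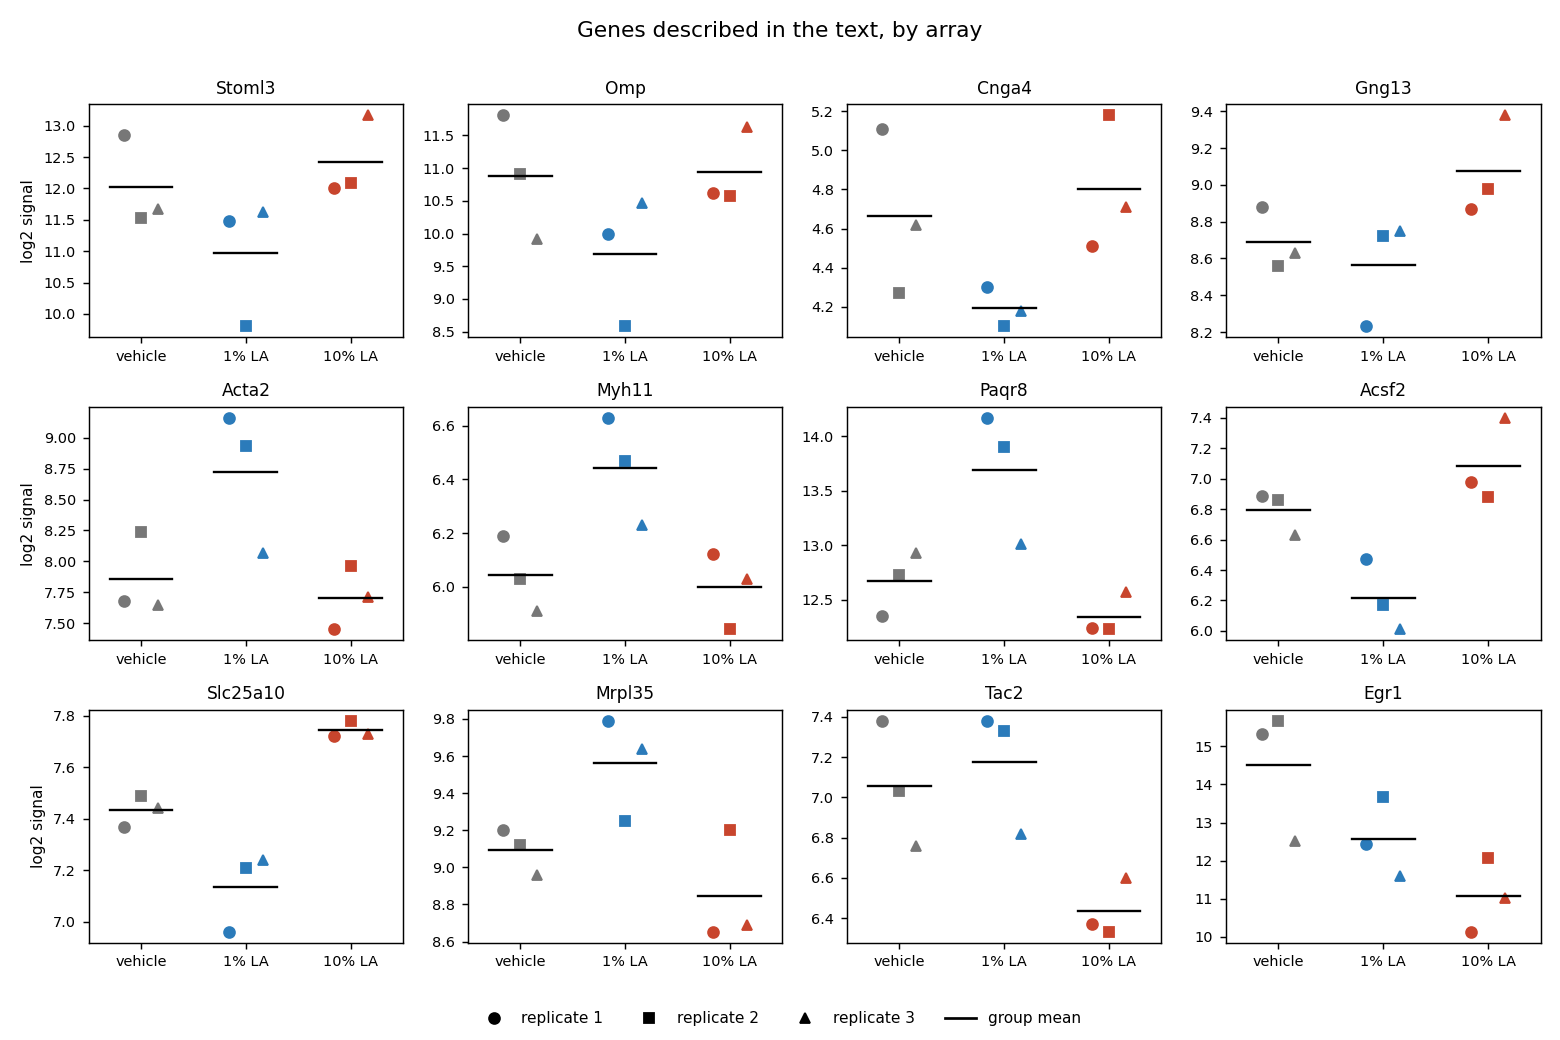
Log2 signal (y axes, each with its own range) of 12 genes in each array, by group (x axis), with a marker shape for each replicate and a bar at the group mean. For Omp and Stoml3 replicate 2 of the 1% LA group is the lowest array, for Acta2 and Paqr8 replicates 1 and 2 of that group are the highest, and for Slc25a10 the groups are tight.

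Of 1110 odorant receptor genes, 22 were higher and 36 lower at an unadjusted limma p under 0.05, with a median difference of -0.02. Only 10 of them reached the median signal of all genes, and none met the criterion of p with 2-fold change. Vomeronasal receptor genes gave 4 higher and 11 lower of 309. An unadjusted limma p under 0.05 was found for 3.04% of the whole table and 3.91% of single-symbol probe sets below the median signal. A share of 0.05 would pass if no gene differed. The probe sets of Vmn1r100 and Vmn1r148, vomeronasal receptors of the type 1 family, held identical values on every array (6.93, 7.60 and 7.26 at 1%, 6.34, 6.82 and 6.40 at 10%) and count as 1 measurement, a difference of -0.74 ± 0.24 (limma, unadjusted p = 0.00993, and 0.0528 without 1% replicates 1 and 2).

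Of 17 ensheathing glia genes measured, 14 differed upward and 3 downward, with a median difference of 0.26, and 0 had an unadjusted limma p under 0.05. Fabp7, a brain fatty acid-binding protein, read 16.89, 16.50 and 17.58 at 1% and 17.92, 17.30 and 18.47 at 10%, with overlap (0.91 ± 0.47, limma, unadjusted p = 0.0828). Frzb, a secreted Wnt antagonist, differed by 0.68 ± 0.33 (limma, unadjusted p = 0.0655). Without the 3 arrays of higher cortex signal, 16 of the 17 differed upward and 4 had an unadjusted limma p under 0.05. Among all 21371 members 931 had such a p in that setting. Without 1% replicates 1 and 2 the count was 12 upward and 5 downward. Of 16 meningeal and fibroblast genes, 9 differed upward and 7 downward with a median of 0.22, which was -0.17 without 1% replicates 1 and 2. Postn, the matrix protein periostin, was 6.84, 7.14 and 7.28 at 1% and 7.78, 7.81 and 7.98 at 10% (0.77 ± 0.22, limma, unadjusted p = 0.00504). Every 10% array exceeded every 1% array, and with 1% replicates 1 and 2 left out the difference was 0.58 (limma, unadjusted p = 0.112).

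Acsf2, Slc25a10 and Abca8a were also among the genes named as higher at 10%. Acsf2, a mitochondrial acyl-CoA synthetase, read 6.47, 6.17 and 6.01 at 1% and 6.98, 6.88 and 7.40 at 10%, with vehicle at 6.89, 6.86 and 6.63. Its groups did not overlap and it differed by 0.87 ± 0.19 (limma, unadjusted p = 0.000903). Slc25a10, the mitochondrial dicarboxylate carrier, read 6.96, 7.21 and 7.24 at 1% and 7.72, 7.78 and 7.73 at 10% (0.61 ± 0.15, limma, unadjusted p = 0.00194). Its 10% arrays lay within 0.06 of each other. Abca8a, a lipid transporter, differed by 1.37 ± 0.48 (limma, unadjusted p = 0.0157) and lost its unadjusted p under 0.05 without 1% replicate 1, 1% replicate 2 or 10% replicate 3. It was 0.72 without 1% replicates 1 and 2 together (limma, unadjusted p = 0.326), and Slc25a10 was then 0.50 (limma, unadjusted p = 0.0502).

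Further genes named by the same rule were higher by 0.63 to 1.13, each without overlap. Cd55b, a form of the complement inhibitor decay-accelerating factor, was 6.93, 7.07 and 7.77 at 1% and 8.41, 7.92 and 8.84 at 10%. Nvl, an ATPase of ribosome assembly, was 9.95, 10.87 and 10.17 against 11.88, 11.26 and 11.06. Sephs2, which makes selenophosphate for selenoproteins, differed by 0.85 ± 0.22, and Samd9l, an interferon-inducible gene, by 0.74 ± 0.21. Pcdhb10, a clustered protocadherin, was the 1 gene of 20 in its list with an unadjusted limma p under 0.05, and differed by 0.79 ± 0.23. Ttc12 (0.82), Mxra7 (0.63), Fam26e (0.76) and Sly (0.93) complete the group, and Sly belongs to a multicopy family of the Y chromosome whose copies an array may not separate. Without 1% replicates 1 and 2, Cd55b differed by 0.62, Ttc12 by 0.45, Mxra7 by 0.61 and Fam26e by 0.50, and the calls of these genes ended.

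Paqr8, a membrane progestin receptor, had the smallest p among the genes named as lower. It read 14.17, 13.90 and 13.01 at 1% and 12.24, 12.23 and 12.57 at 10%, with vehicle at 12.35, 12.73 and 12.93. Replicates 1 and 2 of the 1% group stood apart from all the other arrays, and 1% replicate 3 lay just above the highest vehicle array. The difference was -1.35 ± 0.28 (limma, unadjusted p = 0.000558), and -0.66 without 1% replicates 1 and 2 (limma, unadjusted p = 0.0505). Rxfp1, the relaxin receptor, read 8.21, 8.83 and 7.86 at 1% and 6.15, 7.85 and 7.42 at 10%. Its groups were separated by 0.01 on the log2 scale, and its difference was -1.16 ± 0.42 (limma, unadjusted p = 0.0184), which lost that p without 1% replicate 2 or 10% replicate 1. Of the 30 genes named by the rule, 22 lost an unadjusted limma p under 0.05 without 1% replicates 1 and 2, and 7 lost it without the 3 arrays of higher cortex signal. In each alternative that tested them 7 kept it: Acsf2, Nvl, Samd9l, Pcdhb10, Sly, Mrpl35 and AI464131.

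Others named as lower at 10% were Tac2, Hist1h4c and Mrpl35. Tac2, the precursor of neurokinin B, read 7.38, 7.33 and 6.82 at 1% and 6.37, 6.33 and 6.60 at 10% (-0.74 ± 0.21, limma, unadjusted p = 0.00495), the 1 gene of 32 neuropeptides and growth factors at that threshold. Its difference was -0.39 without 1% replicates 1 and 2 (limma, unadjusted p = 0.215). Hist1h4c, a histone H4 gene, read 11.64, 13.06 and 11.94 against 10.77, 11.39 and 11.50 (-0.99 ± 0.33, limma, unadjusted p = 0.0124), a call lost without 10% replicate 1 or without 1% replicates 1 and 2 together. Histone genes as a list gave 4 higher and 2 lower of 76, with a median of 0.03. Mrpl35, a protein of the large mitochondrial ribosomal subunit, read 9.79, 9.25 and 9.64 at 1% and 8.65, 9.20 and 8.69 at 10% (-0.71 ± 0.20, limma, unadjusted p = 0.00504). With Mrps31 (-0.41), Mrpl34 (-0.47) and Mrps17 (-0.38) it made 4 lower and 0 higher of 75 mitochondrial ribosomal genes, while the list's median was -0.02. Without 1% replicates 1 and 2, Mrps31 (-0.53, limma, unadjusted p = 0.0668), Mrpl34 (-0.15, limma, unadjusted p = 0.583) and Mrps17 (-0.33, limma, unadjusted p = 0.21) no longer had a p under 0.05, nor did they when only the 6 dose arrays were fitted. Cytosolic ribosomal protein genes gave 0 of 71.

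The remaining genes named as lower differed by -0.81 to -0.47 without overlap. Lfng, a glycosyltransferase that modifies Notch, differed by -0.64 ± 0.19, Atat1, the tubulin acetyltransferase, by -0.61 ± 0.20, and Pot1a, a telomere-binding protein, by -0.57 ± 0.18. Dusp3, a phosphatase of MAP kinases, differed by -0.77 ± 0.25. AI464131 (-0.81), Zcchc12 (-0.67) and Tmem80 (-0.47) were the others. The unadjusted limma p of Atat1 was over 0.05 without 1% replicate 2, and those of Zcchc12 and Tmem80 without 10% replicate 2. With the 3 arrays of higher cortex signal left out it was 0.0935 for Lfng, 0.139 for Atat1, 0.0883 for Zcchc12 and 0.123 for Tmem80. Leaving out 1% replicates 1 and 2 ended the calls of these genes (Lfng -0.31, limma, unadjusted p = 0.27) and of Pot1a and Dusp3.

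Early activity genes, which neurons and other cells induce within minutes of stimulation, differed mostly downward at 10%. Of 38 measured, 29 differed downward and 9 upward, with a median of -0.21. In this list 1 gene had an unadjusted limma p under 0.05, Cyr61, a matrix protein (7.24, 7.18 and 7.53 at 1%, 6.84, 7.09 and 6.50 at 10%), which lost it when any 1 dose array other than 10% replicate 2 was left out. Arc, a regulator of AMPA receptor traffic, read 7.95, 8.85 and 7.56 at 1% and 7.03, 7.19 and 6.82 at 10%. The groups did not overlap, and the difference was -1.11 ± 0.58 (limma, unadjusted p = 0.083). Egr1, a zinc finger transcription factor, read 12.43, 13.67 and 11.60 against 10.12, 12.08 and 11.01 (-1.50 ± 0.80, limma, unadjusted p = 0.0866). Replicate 2 was the highest array of either dose. Without 1% replicates 1 and 2, 20 of the 38 differed upward and 18 downward, with a median of 0.04. Leaving out the 3 arrays of higher cortex signal instead gave 24 downward and 14 upward, with a median of -0.13. In that setting 6 had an unadjusted limma p under 0.05, all of them lower. Among all 21371 members 931 had such a p in that setting, against 647 with all arrays.

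Of 24 unfolded protein response genes 20 differed downward (median -0.26), of 21 cytosolic heat shock genes 19 (median -0.18) and of 23 cholesterol synthesis genes 18 (median -0.15). Over all single-symbol probe sets 50.5% differed upward. Xbp1, which switches on chaperone genes of the endoplasmic reticulum, read 12.96, 13.71 and 12.92 at 1% and 12.05, 12.28 and 13.15 at 10%, with overlap (-0.70 ± 0.32, limma, unadjusted p = 0.0482), and had a p over 0.05 in 9 of the 19 alternatives, fitting only the 6 dose arrays included (limma, unadjusted p = 0.0585). Chac1, a glutathione-degrading enzyme of the same response, differed the other way (0.65 ± 0.22, limma, unadjusted p = 0.0128, and 0.099 without 1% replicates 1 and 2). Hsf1, the heat shock transcription factor, differed by -0.43 ± 0.19 (limma, unadjusted p = 0.0477). With the 3 arrays of higher cortex signal left out, Xbp1 differed by -0.34 (limma, unadjusted p = 0.331) and Hsf1 by -0.32 (limma, unadjusted p = 0.233), and with 1% replicates 1 and 2 left out by -0.43 (limma, unadjusted p = 0.356) and -0.53 (limma, unadjusted p = 0.0875). Without the 3 arrays of higher cortex signal the medians of the first 2 lists were both -0.05, and 1% replicate 2 had the highest level of both (11.43 and 12.04). When 1% replicates 1 and 2 were left out, 11 of the 21 heat shock genes differed upward and 10 downward, with a median of 0.00, and 18 of the 24 unfolded protein response genes differed downward.

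Myelin genes differed downward in 16 of 19 with a median of -0.19, and 0 had an unadjusted limma p under 0.05. Mbp, myelin basic protein, read 17.28, 17.80 and 17.10 at 1% and 16.67, 17.22 and 17.17 at 10%, with overlap. Clock genes differed downward in 19 of 22 (median -0.14, and -0.04 without 1% replicates 1 and 2) and mitral and tufted cell genes in 13 of 15 (median -0.21), each with 0 at that threshold. Without the 3 arrays of higher cortex signal, 2 of the 15 mitral and tufted cell genes were lower at that threshold. Among all 21371 members 931 passed it in that setting, in either direction. The median of the mitral and tufted cell genes was then -0.08. It was -0.27 without 1% replicates 1 and 2. Astrocyte (0.02), granule and periglomerular (-0.05), neuroblast (0.00) and microglia (-0.07) lists had medians near 0.

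**Figure D4:**
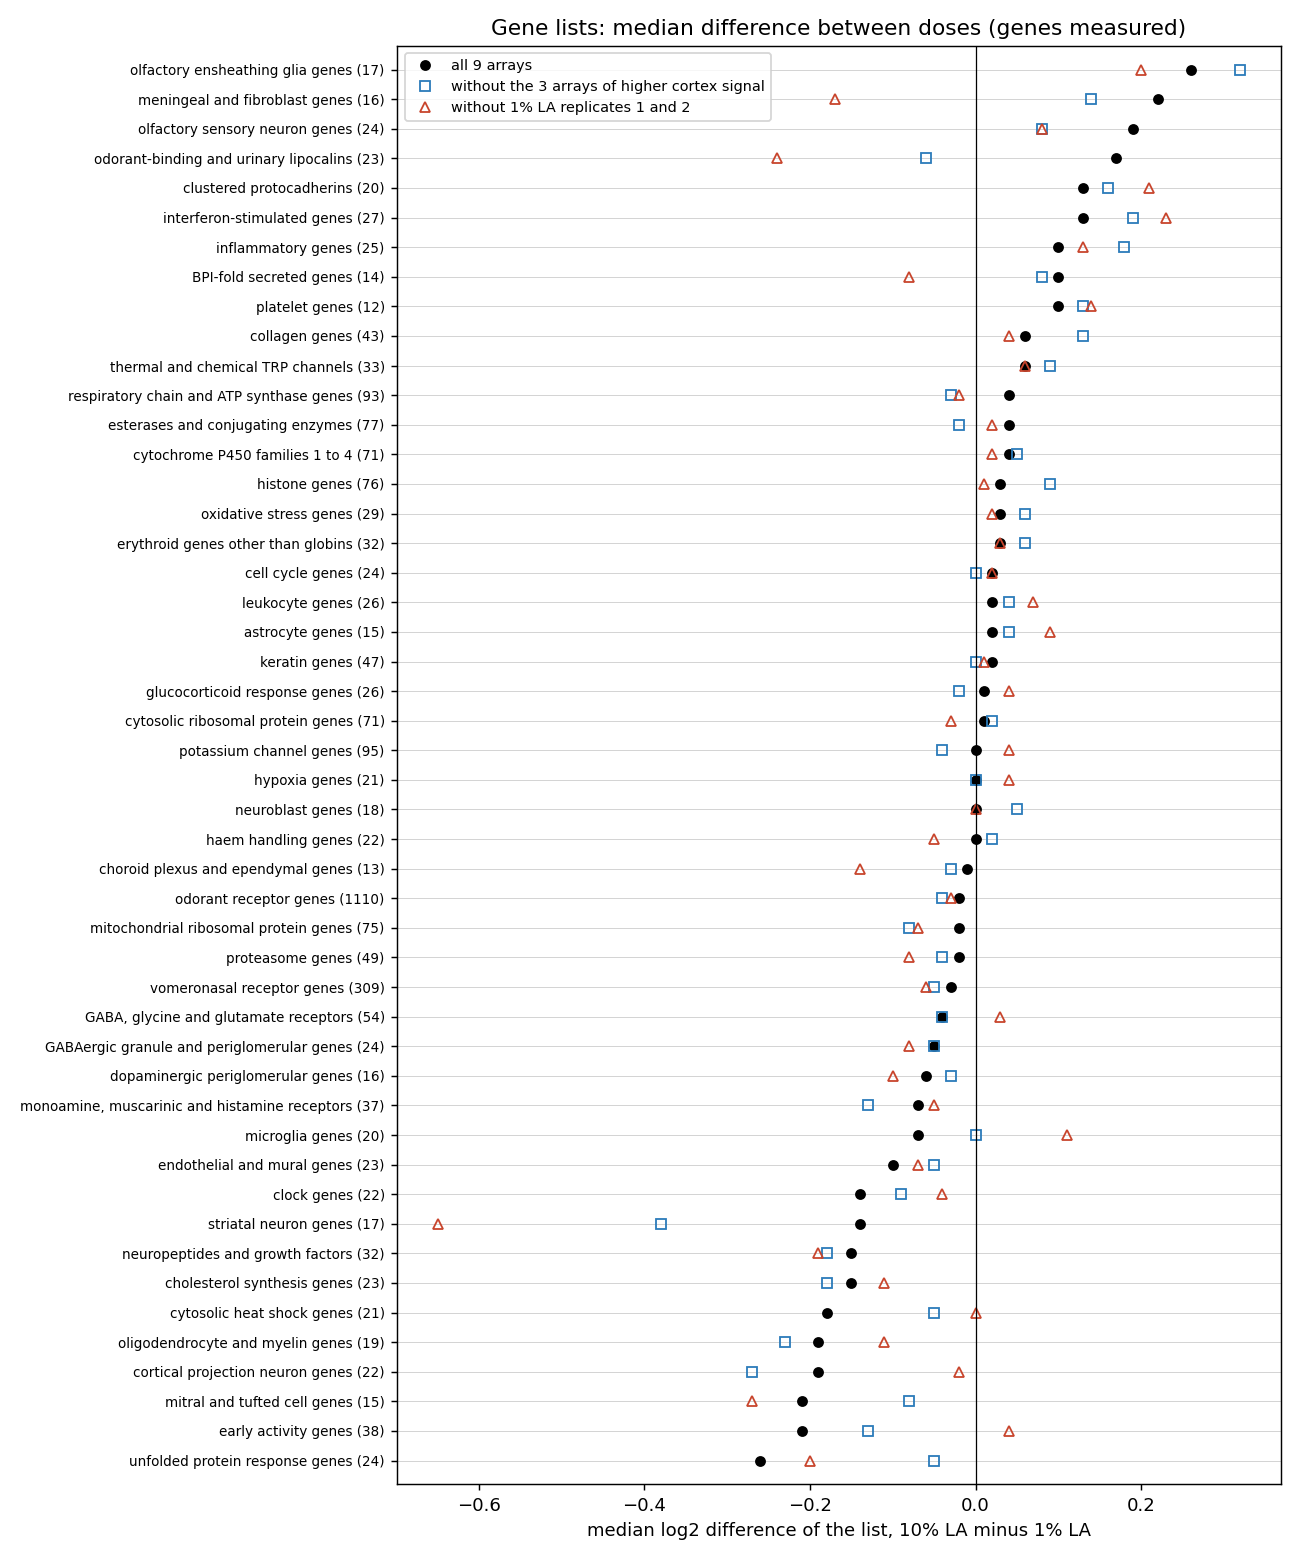
Median log2 difference, 10% LA minus 1% LA, of each of 48 gene lists (number of genes measured in brackets), with all arrays (black) and with the arrays named in the key left out. Medians within 0.1 of 0 make up 32 lists, and several lists at either end lie closer to 0, or across it, when arrays are left out.

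Inflammatory genes were read because the descriptions of 1% replicates 1 and 2 name LPS. Their list level was 5.27, 5.24 and 5.19 at 1%, 5.40, 5.33 and 5.33 at 10%, and 5.31, 5.39 and 5.33 in vehicle, so the 1% arrays were the lowest, including replicate 3, which has no description. Only 4 of the 25 genes reached the median signal of all genes, and the vehicle samples' own descriptions name saline or LPS. Whether any of these samples received LPS was not tested. Of 25 genes, 19 differed upward and 6 downward, and 1 had an unadjusted limma p under 0.05, the chemokine Ccl2 (4.76, 4.86 and 5.34 against 5.81, 5.22 and 5.35, with overlap). Interferon-stimulated genes gave 3 higher and 0 lower of 27. Ifit3b, one of the antiviral IFIT proteins, read 8.35, 8.53 and 8.27 at 1% and 8.78, 8.76 and 8.84 at 10% (0.41 ± 0.15, limma, unadjusted p = 0.0195), and Trim30a and Xaf1 were the others. Trim30a and Xaf1 lost that p when only the 6 dose arrays were fitted, and Ccl2 did too (limma, unadjusted p = 0.0689). Ifit3b lost it without 1% replicate 1 (limma, unadjusted p = 0.051) or 1% replicate 3 (limma, unadjusted p = 0.0683). Without 1% replicates 1 and 2, Ccl2 differed by 0.12 and Trim30a by 0.46, and their calls ended, while 19 of the 25 inflammatory genes still differed upward.

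**Figure D5:**
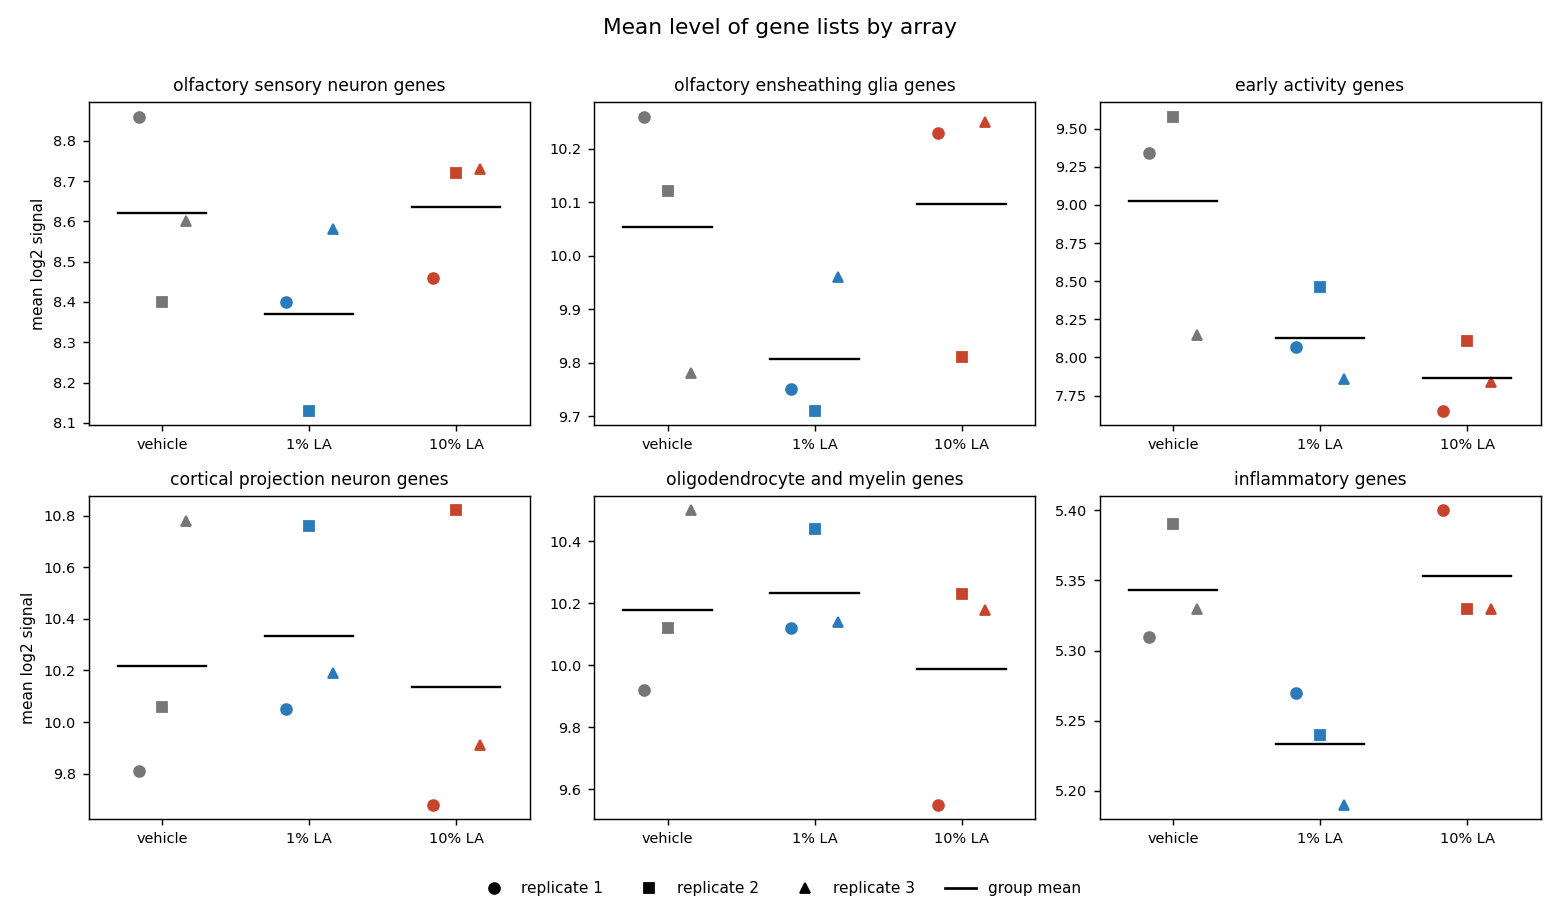
Mean log2 signal (y axes, each with its own range) of 6 gene lists in each array, by group (x axis), with a marker shape for each replicate and a bar at the group mean. Cortical projection neuron genes are highest in replicate 2 of both doses and replicate 3 of vehicle, and inflammatory genes are lowest in the 3 arrays of 1% LA.

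Genes of receptors, channels and drug-metabolizing enzymes gave few calls. GABA, glycine and glutamate receptor genes gave 0 of 54 at an unadjusted limma p under 0.05, and cytochrome P450 genes of families 1 to 4 gave 0 of 71. Carboxylesterases and conjugating enzymes gave 1 higher and 2 lower of 77, all of them at low signal. Among 37 monoamine, muscarinic and histamine receptors, the serotonin receptor Htr5a was the 1 lower (7.17, 6.96 and 7.22 against 6.77, 6.71 and 6.35, limma, unadjusted p = 0.0181, and 0.0575 without 1% replicates 1 and 2). Potassium channel genes gave 1 higher (Kcnmb2) and 2 lower (Kcna3 and Kcnn3) of 95. Leaving out 1% replicates 1 and 2 gave 0.51 for Kcnmb2 and -0.26 for Kcnn3, and their calls ended.

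Some of the largest differences rested on 2 of the 3 arrays of a dose. Gdpd3, a glycerophosphodiester phosphodiesterase, read 7.18, 4.20 and 8.28 at 1% and 4.83, 3.70 and 4.02 at 10% (-2.37 ± 0.78, limma, unadjusted p = 0.0109), with 1% replicate 2 inside the 10% range. Obp2b, an odorant-binding lipocalin, read 5.26, 4.31 and 4.90 against 4.82, 8.18 and 7.62 (2.05 ± 0.68, limma, unadjusted p = 0.0119), and Zfp125 read 6.71, 6.16 and 6.88 against 6.07, 9.88 and 9.77. In both, 10% replicate 1 lay with the 1% arrays. Obp2b differed by 1.14 without the 3 arrays of higher cortex signal (limma, unadjusted p = 0.162). It differed by 1.97 without 1% replicates 1 and 2, where its call also ended. Leaving out the array that stood apart gave the only adjusted calls: Gdpd3 alone without 1% replicate 2, and Obp2b and Zfp125 without 10% replicate 1. The lipocalins Obp2a, Obp1a and Mup4, made in nasal glands, spanned over 4 log2 units within each dose. Obp2a read 8.56, 6.01 and 10.39 at 1% and 5.48, 12.35 and 11.80 at 10%, and its difference of 1.56 ± 1.62 was within that spread.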

How the data were processed

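Total RNA of 9 olfactory bulb samples was hybridised to Clariom S arrays. The authors deposited log2 signal values per probe set; the submitters' processing notes name RMA, limma and Transcriptome Analysis Console 4, with no role given. In the authors' file, 27 cells of 1 array had been stored as dates. They were decoded as day counts and matched the log2 values of the series' value table within 0.00518. Probe sets with several symbols, 836 in all, were tested. Of these only the 4 haemoglobins are described, apart from some predicted genes of chromosome 14 counted under other observations. No array was normalized again, median log2 signal was 6.92 to 6.98 per array, and array number limits the precision.

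From these values a means model of the 3 groups was fitted to all 9 arrays (limma 3.58.1, R 4.3.3; residual df 6, prior df 4.99), and the contrast 10% minus 1% was adjusted by Benjamini-Hochberg over all 22206 probe sets at 0.05. Errors are the model's SE. Tested on simulated data for this comparison over 22206 probe sets, an adjusted p under 0.05 recovered 46.5% of 2-fold and 94.5% of 4-fold changes. Genes were named by rule, up to 15 per direction: first those past unadjusted p 0.05 and 2-fold, then those at unadjusted p under 0.05 in order of p, each without overlap and with the higher mean at or above the median signal, leaving out predicted genes. All haemoglobin and erythroid genes were added, with the 4 smallest p-values and the 3 highest signals of each list. The members and lists were chosen with earlier results of these data known. Genes named outside the rule (Gdpd3, Zfp125, Hfm1 and the predicted genes) were chosen after their values were seen. Some items are not reported here. Replicate numbers were checked as pairs: same-numbered deviations correlated at 0.107, 0.274 and 0.011, so the numbers were not taken to pair samples. The authors' own comparison tables were not used here. Promoters are from RefSeq and were aligned with Biopython.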

Additional observations from a re-analysis of the deposited data

How the results depend on the processing

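Across 19 alternatives, no adult haemoglobin probe set or gene named by the rule reversed direction in those that tested it. The doses did not overlap in any of these, and the naming rule required it, so leaving out arrays could not reverse them. Nothing is concluded from the lack of reversals. Of the 6 embryonic and theta globins, 2 differed upward and 4 downward with all arrays. With 1% replicate 2, 10% replicate 2 and vehicle replicate 3 left out, 3 of these 6 differed upward and 3 downward. Other scalings moved the median of all probe sets by at most 0.01. With limma, 0 members had an adjusted p under 0.05 (647 unadjusted) except without 1% replicate 2 (1) and without 10% replicate 1 (2), so leaving out a replicate gave 0 to 2. Members at an unadjusted p under 0.05 numbered 931 without the 3 arrays of higher cortex signal. They numbered 243 when only probe sets at or above the median signal were kept, fewer being tested. Members over 2-fold as well numbered 91 without the 3 arrays of higher cortex signal, 25 to 93 when a replicate was left out (93 without 10% replicate 2, 42 without 1% replicate 3), and 112 without 1% replicates 1 and 2. The share of probe sets whose groups did not overlap was 29.5% without the 3 arrays of higher cortex signal and 14.7% to 19.3% without a dose replicate (7.08% without a vehicle replicate), where fewer arrays make overlap rarer; it was not computed for a lone 1% array.

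Leaving out a replicate gave -1.32 to -0.86 for Hbb-bt, -1.71 to -1.06 for Hbb-bs and -1.34 to -1.0 for the alpha globin probe sets, which kept an unadjusted limma p under 0.05 in each of these. Without 1% replicates 1 and 2, Hbb-bt (-0.73), Hbb-bs (-0.85) and Hba-a2; Hba-a1 (-0.75) lost it; the lone 1% array is there assumed to vary like the other groups. Fitted with a replicate block, 0 members had an adjusted p under 0.05, 30 met the criterion and 657 had an unadjusted p under 0.05. The block changed no call of a haemoglobin probe set, and the numbers are not known to pair samples. The causes were not tested.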

Other observations

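A run of predicted genes on chromosome 14 was lower at 10%. Of the 34 probe sets over 2-fold with an unadjusted limma p under 0.05, 10 were probe sets of predicted genes of this chromosome. All of them were lower, with differences of -1.21 to -1.01. Some of the 10 carry several symbols and so lie outside the members compared above. Gm3500 had 2 of these probe sets. Its probe set with the larger difference (-1.21) read 9.56, 9.94 and 10.79 at 1%, 8.38, 9.29 and 9.0 at 10%, and 8.80, 10.08 and 9.20 in vehicle. There the doses did not overlap and the vehicle arrays lay across both, while for others, such as Gm3002, Gm10406 and Gm3739, the doses overlapped. Of the 10 probe sets, 2 held identical values on every array (Gm3739 and Gm3629; Gm2897), and members of this family may share probes, so they are not 10 independent measurements. They were singled out after their values were seen, and no test was made of the group.

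Another 26 single-symbol probe sets differed by over 2-fold without an unadjusted limma p under 0.05, and the doses overlapped in 24 of them. In 12 of the 26, replicate 2 was the highest array at both doses. Hfm1, a helicase of meiotic recombination, had the lowest unadjusted limma p of all members (0.000222) at a signal below the median of all genes, 5.17, 4.93 and 5.17 at 1% and 6.96, 6.24 and 6.09 at 10%. Its adjusted p was 0.999.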
